A study of Mus musculus with 6 samples.

Results

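The suppressor of cytokine signalling (SOCS) family was examined in long-term hematopoietic stem cells (LT-HSCs) of old mice. Its 8 genes, Socs1 to Socs7 and Cish, were taken by gene symbol from the 17500 genes of the deposited series count table (55450 genes in the library tables). The sorted populations were CD61High, the top 10% of the LT-HSC gate by CD61 staining, and CD61Low, the bottom 10%. CD61 is integrin beta 3. Both gates came from wild-type C57/Bl6 males 22 to 24 months of age, by the labels, and both lacked lineage markers and CD48 and carried Sca1, cKit and CD150. Each gate was taken from 3 mice, so that 6 bulk RNA-seq libraries of 5000 sorted cells each were compared. The titles name 1 mouse per library while the protocol speaks of pools, and the mouse numbers are taken here as 3 animals. In a fit without a term for mouse, which ignores the pairing, p-values measure the spread between libraries of the same gate. With the mouse as a block, they measure the spread of the differences within mice.

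SOCS proteins are made in answer to cytokines and then restrain the same signal. A cytokine receptor activates Janus kinases (JAKs), the kinases activate STAT transcription factors, and STATs switch on several SOCS genes. Each SOCS protein has an SH2 domain, which binds phosphorylated tyrosine, and a SOCS box, which recruits an elongin and cullin ubiquitin ligase to what the SH2 domain holds. SOCS1 and SOCS3 carry in addition a short kinase inhibitory region that blocks JAKs. In hematopoiesis the family is best known for limiting signals of interferon gamma (SOCS1), of receptors that use gp130 and of the G-CSF receptor (SOCS3), and of the growth hormone and STAT5 pathways (SOCS2 and CIS, the product of Cish).

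Each library had between 21354130 and 26398090 counts on genes, and all 8 SOCS genes passed the filter on low counts. Their raw counts ran from 77, for Socs7, to 3348, for Socs3. The cells expressed the genes of the sort markers Sca1 and cKit. Levels of CD150 and CD48 transcripts are not given here. Ly6a (Sca1) had 119, 73.1 and 71.6 CPM in CD61High of mice 1, 2 and 3, against 282, 155 and 231 CPM in CD61Low. Kit had 1538, 1086 and 1772 CPM in CD61High, against 1965, 576 and 1818 CPM in CD61Low. With the mouse as a block, 2 of the 12 LT-HSC markers were called as lower in CD61High, Ly6a among them (log2 -1.34, edgeR adjusted p = 0.0446). That fit called 0.160% of all tested genes as lower. The list was mixed: in all 3 mice 4 of the 12 were lower and 2 higher, beside 24.7% and 20.6% of all tested genes. CPM are counts scaled to library size, with TMM factors. Transcripts of cells that the sort should remove were present too. The 20 neutrophil markers took 0.590% (95% Wilson interval 0.587 to 0.593), 7.72% (7.71 to 7.73) and 0.0430% (0.0422 to 0.0438) of counts in CD61High of mice 1, 2 and 3. In CD61Low they took 2.29% (2.28 to 2.30), 12.4% (12.3 to 12.4) and 0.219% (0.218 to 0.221). Both libraries of mouse 2 thus stood apart from the other 4, and the share was smaller in CD61High in each mouse. The intervals cover counting error only. In bulk RNA, fewer cells of a type and less RNA per cell cannot be told apart.

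The promoters of 3 SOCS genes are shown because they hold letters that STATs or interferon regulatory factors can bind. RefSeq promoter windows on GRCm38.p6 (300 bases, of which 50 follow the gene's start) were at hand for Socs1, Socs3, Socs4 and Cish. They were searched on both strands for 5 motifs, and capitals mark the matches to TTCNNNGAA, the STAT motif, or to the interferon motif, which is GAAA, any 2 bases and GAAA. The stretches are 30 bases each, 5′ to 3′ on the gene's strand: Cish at chr9:107296654-107296683 (plus), Socs3 at chr11:117969502-117969531 (minus) and Socs1 at chr16:10785597-10785626 (minus).
Cish: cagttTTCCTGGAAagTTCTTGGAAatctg
Socs3: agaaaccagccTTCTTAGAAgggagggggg
Socs1: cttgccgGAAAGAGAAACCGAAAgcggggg

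Cish had 2 copies of the STAT motif, at positions 1 and 12 counted from the RefSeq start. These letters lie in the first exon of one annotated transcript and upstream of another. Socs3 had 1 copy, at position -154. That copy lies within the annotated span of the gene, which is on the minus strand and reaches 117970047. The STAT motif was present in 8.30% of the 32851 windows of the table, and 2 or more copies in 0.457%. Socs1 had 2 interferon motifs, overlapping by 4 bases, at positions -83 and -77. Of all windows 3.44% had 1 or more of these and 0.225% had 2 or more. The other motifs searched were the spaced STAT motif, with 4 free bases in place of 3, TGANTCA, the AP-1 motif, and TGACGTCA, the cyclic AMP response element. They matched none of the 4 windows, and no motif matched the Socs4 window. They were present in 6.95%, 7.81% and 1.79% of all windows. A match describes letters, not a bound site.

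The members differed in structure as well as in their promoters. By the GENCODE M21 annotation on GRCm38, the coding sequence lies in 1 exon in Socs1 (ENSMUSG00000038037.5, chromosome 16, 10782240 to 10785536), Socs3 (ENSMUSG00000053113.3, chromosome 11, 117966079 to 117970047), Socs4 (ENSMUSG00000048379.9, chromosome 14, 47276931 to 47296102), Socs5 (ENSMUSG00000037104.9, chromosome 17, 87107679 to 87137839) and Socs6 (ENSMUSG00000056153.15, chromosome 18, 88665224 to 88927481). It spans 2 exons in Socs2 (ENSMUSG00000020027.18, chromosome 10, 95385362 to 95417180), 3 in Cish (ENSMUSG00000032578.7, chromosome 9, 107296026 to 107302784) and 9 in Socs7 (ENSMUSG00000038485.5, chromosome 11, 97362551 to 97398542). The compact Socs1 and Socs3 loci cover 3297 and 3969 bases, whereas Socs6 covers 262258. Exons of Gm17040 and Gm17041 share 11.5% of the exon sequence of Cish, where unstranded counting cannot tell whose reads they are. The other 7 genes share no exon sequence with another annotated gene.

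All 8 SOCS genes had a lower estimate in CD61High than in CD61Low LT-HSCs, and none of the 8 was called as different. Socs3 differed most, at 36.3 ± 8.41 CPM in CD61High and 91.2 ± 29.0 CPM in CD61Low (SD, n = 3 each). Cish and Socs2, both known as STAT5 target genes, followed. Socs4 and Socs6 differed least. The question of the comparison is how the transcripts of old LT-HSCs vary with CD61 on their surface. With edgeR's quasi-likelihood test and no term for mouse, 0 of 15610 genes had an adjusted p under 0.05 (0.00% called), so the 0 of 8 members called is no result about the family; 1023 genes (6.55%) had an unadjusted p under 0.05. The estimate was below 0 for 54.6% of all tested genes. The median log2 fold change, CD61High over CD61Low, was -0.42 over the 8 members and -0.05 over all tested genes.

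**Figure D1:**
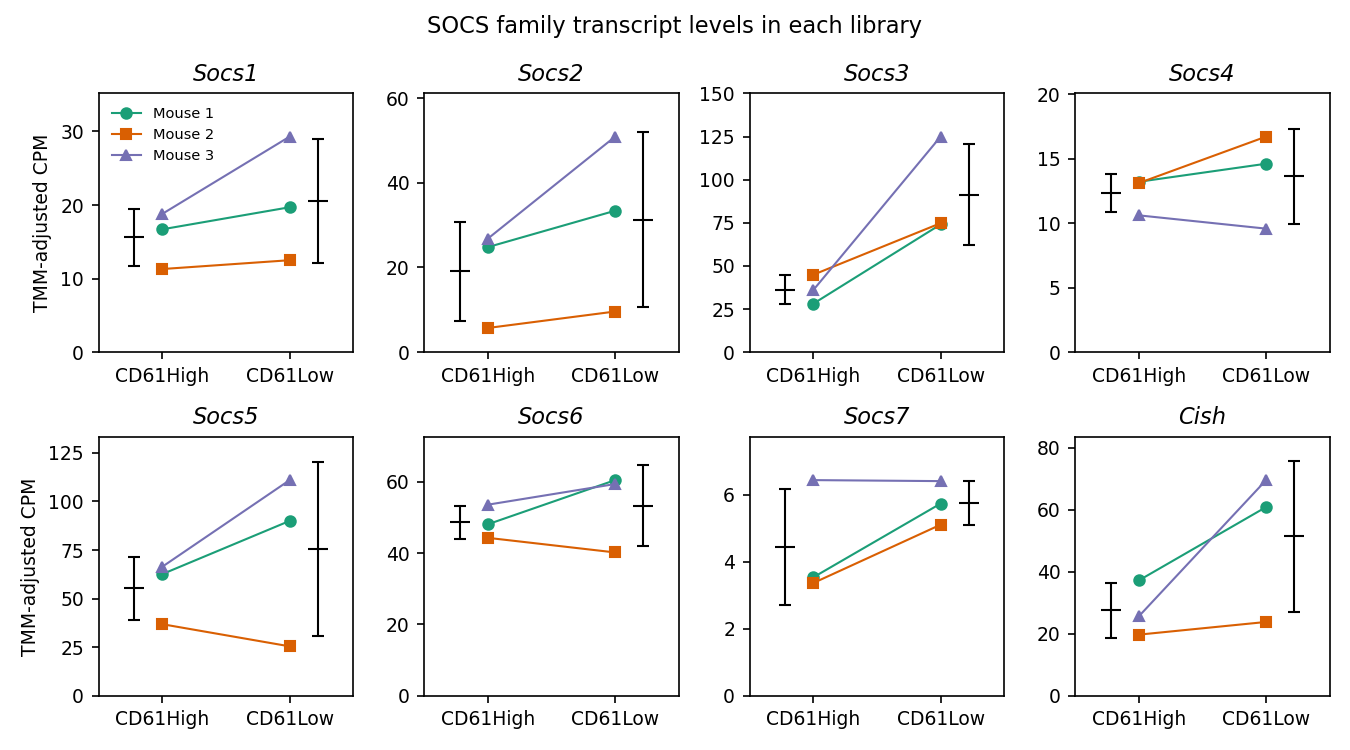
TMM-adjusted CPM (y axis) of each SOCS gene in CD61High and CD61Low libraries (x axis), with 1 coloured line per mouse; black bars are the mean ± SD of 3 libraries. Socs1, Socs2, Socs3 and Cish lie lower in CD61High in all 3 mice, and only for Socs3 do the gates not overlap.

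Socs3 encodes the feedback inhibitor of gp130 and G-CSF receptor signalling. It had 28.1, 44.9 and 36.0 CPM in CD61High of mice 1, 2 and 3, against 74.1, 74.8 and 125 CPM in CD61Low. Every CD61High library was below every CD61Low library, which was so for 5.71% of all tested genes. The log2 difference, CD61High minus CD61Low, was -1.40, -0.73 and -1.79 in mice 1, 2 and 3. The log2 fold change without a term for mouse was -1.33 (SE 0.29), at an adjusted p of 0.652 in edgeR's quasi-likelihood test. Leaving out single libraries or mice moved it between -1.64 and -1.02.

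Cish encodes CIS, the founding member of the family. It stood at 37.2, 19.7 and 25.6 CPM in CD61High of mice 1, 2 and 3, against 60.9, 23.8 and 69.6 CPM in CD61Low. The gates overlapped, because CD61Low of mouse 2 lay below CD61High of mice 1 and 3, yet CD61High was the lower in each mouse. The log2 differences were -0.71, -0.27 and -1.44. Without a term for mouse the log2 fold change was -0.91 (SE 0.45, edgeR adjusted p = 0.767).

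Socs2 encodes the inhibitor of growth hormone receptor signalling. Its levels were 24.8, 5.71 and 26.8 CPM in CD61High of mice 1, 2 and 3, against 33.4, 9.60 and 50.9 CPM in CD61Low. Mouse 2 was low in both gates, and the ranges of the gates overlapped widely. Within each mouse CD61High was lower, by log2 differences of -0.43, -0.74 and -0.92. The spread between mice entered the fit without a term for mouse, which gave -0.71 (SE 0.77, edgeR adjusted p = 0.936).

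Socs1, the inhibitor of interferon gamma signalling, had 16.7, 11.3 and 18.8 CPM in CD61High of mice 1, 2 and 3, against 19.7, 12.5 and 29.3 CPM in CD61Low. CD61High was again the lower in each mouse while the gates overlapped. The log2 fold change was -0.39 (SE 0.38, edgeR adjusted p = 0.926). With Socs3, Cish and Socs2, Socs1 made up the 4 of 8 members that were lower in CD61High in all 3 mice; of all tested genes, 24.7% were.

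Socs4, Socs5, Socs6 and Socs7 have longer amino-terminal regions than the other members and are less well tied to cytokine receptors. Socs5, which has been linked to interleukin 4 and EGF receptor signalling, had 62.6, 36.8 and 66.4 CPM in CD61High of mice 1, 2 and 3, against 90.0, 25.4 and 111 CPM in CD61Low. It was lower in CD61High in mice 1 and 3 and higher in mouse 2. Socs6, whose product binds the receptor kinase KIT, stood at 48.7 ± 4.64 CPM in CD61High and 53.4 ± 11.4 CPM in CD61Low (SD, n = 3 each), with log2 differences of -0.33, 0.14 and -0.15. Socs4 stood at 12.3 ± 1.44 CPM in CD61High and 13.6 ± 3.67 CPM in CD61Low, with differences of -0.14, -0.35 and 0.15. Socs7, the scarcest member, stood at 4.44 ± 1.72 CPM in CD61High and 5.74 ± 0.653 CPM in CD61Low, with differences of -0.69, -0.59 and 0.00. The gates overlapped for all 4. Their log2 fold changes without a term for mouse were -0.45 (SE 0.55) for Socs5, -0.13 (SE 0.21) for Socs6, -0.15 (SE 0.28) for Socs4 and -0.37 (SE 0.37) for Socs7, and edgeR's adjusted p was 0.926 to 0.940.

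The titles pair the libraries by mouse, and a blocked edgeR fit called 40 genes, 25 of them lower in CD61High (0.160% of those tested), again with 0 of the 8 SOCS members. Socs3 came closest, at -1.31 on the log2 scale (SE 0.22, adjusted p = 0.0620). Socs2 was at -0.70 (SE 0.18, adjusted p = 0.107) and Cish at -0.81 (SE 0.24, adjusted p = 0.135) in that edgeR fit. These 3 were the members at an unadjusted p under 0.05 in the direction of CD61Low, as were 12.8% of all tested genes. The standard error of Socs2 was 0.77 without the block and 0.18 with it.

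Other tools and a smaller set of libraries gave calls among the members. DESeq2 without the block called Socs3 (adjusted p = 0.0107), where 1.52% of genes were called and 0.692% as lower in CD61High. DESeq2 with the block called Socs3 (adjusted p = 9.36e-06), Socs2 (adjusted p = 0.0180) and Cish (adjusted p = 0.0278), where 10.0% of genes were called and 7.11% in that direction. The linear model limma voom with the block called Socs3 (adjusted p = 0.0383), in a fit that called 2.13% of genes, 1.63% as lower. Without mouse 2, edgeR with the block called Socs3 (-1.61, SE 0.15, adjusted p = 0.0189) and Cish (-1.09, SE 0.20, adjusted p = 0.0474), where 4.77% of genes were called and 2.93% as lower. That fit left 1 residual degree of freedom.

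**Figure D2:**
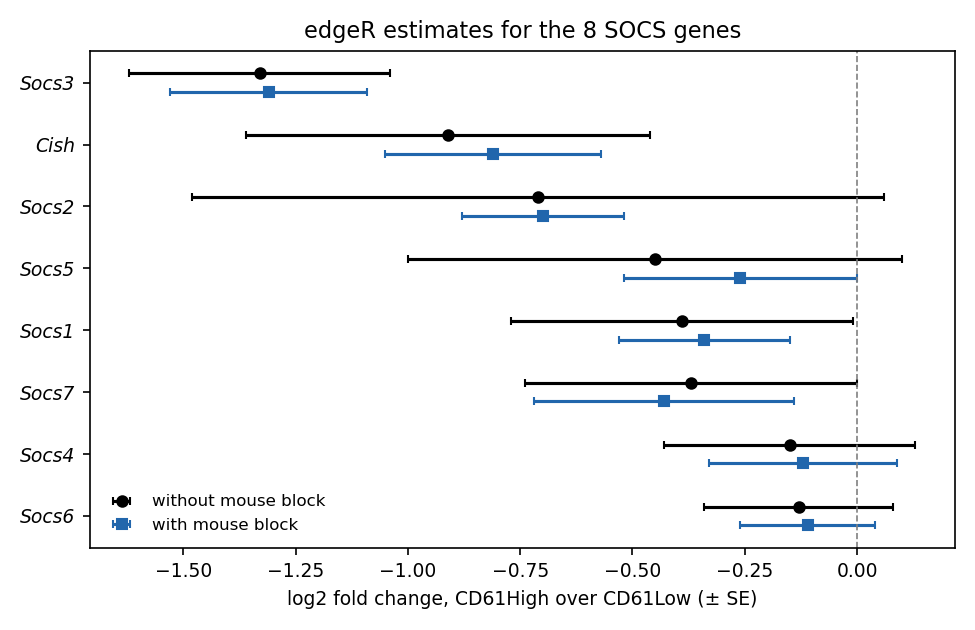
Log2 fold change, CD61High over CD61Low, of each SOCS gene (x axis, genes on the y axis) from edgeR without (black) and with (blue) the mouse as a block; bars are 1 SE. All 8 estimates lie below 0 in both fits, from -1.33 for Socs3 to -0.13 for Socs6 without the block.

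Between mice, most members followed one pattern. Averaged over both gates, Socs2 had 29.1, 7.66 and 38.8 CPM in mice 1, 2 and 3, a 5.07-fold range. Socs5, Cish and Socs1 were likewise lowest in mouse 2, with ranges of 2.86, 2.26 and 2.02-fold. Socs6 varied least, with a 1.34-fold range. Socs3 and Socs4 departed from this order: Socs3 was lowest in mouse 1, at 51.1 CPM against 59.8 in mouse 2 and 80.3 in mouse 3, and Socs4 was highest in mouse 2. The 12 LT-HSC markers took 0.227% (95% Wilson interval 0.225 to 0.229) and 0.141% (0.140 to 0.143) of counts in CD61High and CD61Low of mouse 2. They took 0.471% to 0.492% in the other CD61High libraries and 0.622% to 0.656% in the other CD61Low libraries. The part of this in the low SOCS levels of mouse 2 was not tested.

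**Figure D3:**
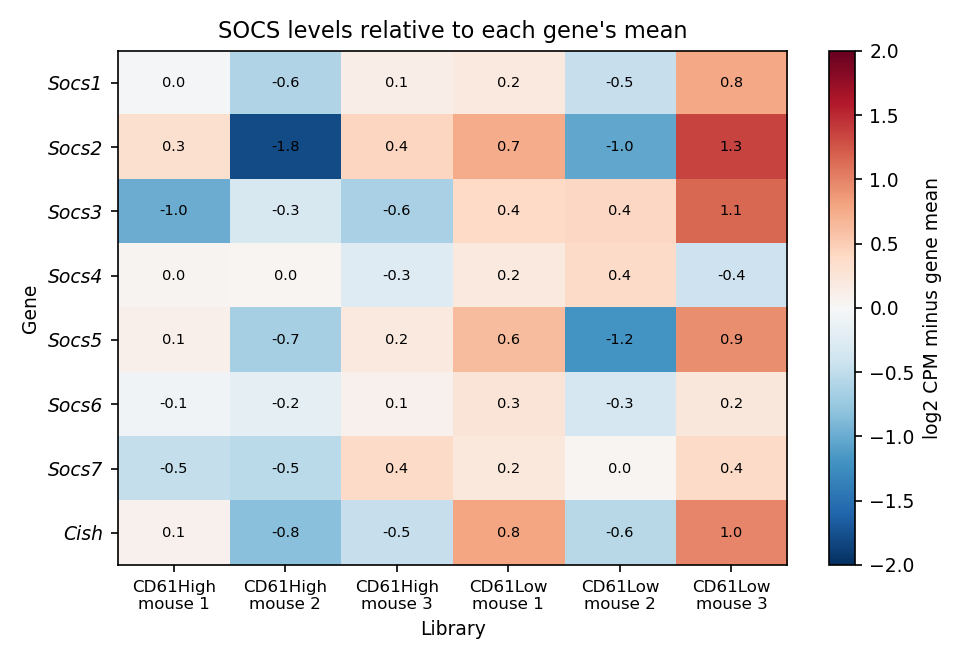
Log2 CPM of each SOCS gene (rows) in each library (columns) minus the gene's mean over the 6 libraries; red is above and blue below the mean. Both libraries of mouse 2 are low for Socs1, Socs2, Socs5 and Cish, while Socs3 is below its mean in the 3 CD61High libraries and above it in the 3 CD61Low libraries.

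Across the 6 libraries, which share mice and gates, log2 levels of Socs1, Socs2, Socs5, Socs6 and Cish went together, with Pearson correlations of 0.83 to 0.97 between them. Socs3 correlated with these 5 at only 0.26 to 0.57, and Socs4 at -0.71 to -0.35. Among 10613 other genes with a mean of at least 5 CPM, the 3 most like Socs3 over the 6 libraries were Jund, an AP-1 subunit (r = 0.984), Ticam1, a Toll-like receptor adaptor (r = 0.983), and Xpc, a DNA damage sensor (r = 0.982). Those most like Cish were Cyp4f13, Bgn and Muc1 (0.996 to 0.998), and those most like Socs2 were Zfp768, Zfp334 and Togaram1 (0.995 to 0.997). Acvr1, Basp1 and Scaf8 were most like Socs1 (0.996 to 0.998). Col16a1, Cul9 and Cdkn1c, the cell-cycle inhibitor p57, were most like Socs5 (0.997 to 0.998). For Socs6 they were Rab3gap1, Dlg1 and Zfr (0.996 to 0.998), for Socs7 Nt5c2, Appl1 and Zfp874b (0.979 to 0.985), and for Socs4 Hint3, Wsb1, itself a SOCS-box gene, and Mob4 (0.975 to 0.988). These values are a description over 6 points that share mice and gates.

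Per exon length, Socs3 was the most abundant member and Socs7 the least. Socs3 had 22.1 ± 12.3 CPM per kb of merged exons (SD over the 6 libraries), followed by Socs5 at 10.2 ± 4.99, Socs1 at 6.21 ± 2.22, Cish at 6.15 ± 3.27, Socs6 at 4.50 ± 0.723, Socs2 at 2.64 ± 1.73, Socs4 at 1.88 ± 0.378 and Socs7 at 0.701 ± 0.188 CPM per kb. The ranges of every pair of neighbours overlapped, except that Socs4 was above Socs7 without overlap. Socs3 exceeded Socs5 in 5 of 6 libraries. The middle of the order depends on the length used, because non-coding transcripts lengthen the merged exons of Socs2 to 9531 bases. With the longest protein-coding transcript, 2222 bases for Socs2 and 2850 for Cish, Cish stood at 13.8 ± 7.37 and Socs2 at 11.3 ± 7.40 CPM per kb, behind Socs3 and Socs5.

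**Figure D4:**
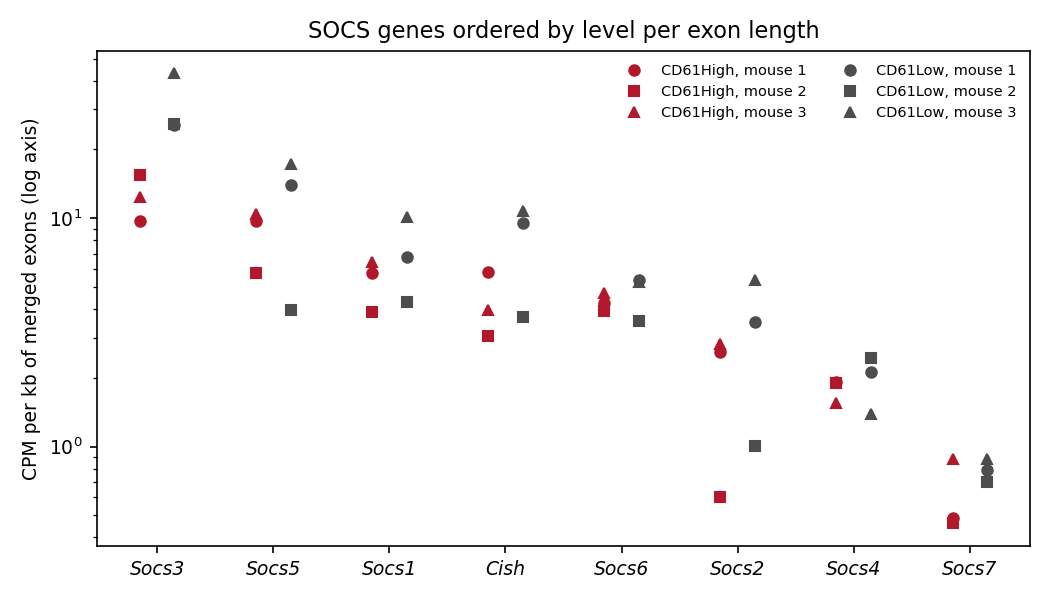
TMM-adjusted CPM per kb of merged exons (log y axis) for the SOCS genes in order of their mean (x axis); red points are CD61High and grey points CD61Low libraries, with symbols for the 3 mice. Socs3 leads at a mean of 22.1 CPM per kb and Socs7 closes at 0.701.

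The rest of the pathway was described with lists of known members, written with earlier results of these data known. Their counts of called genes stand beside the 40 genes (0.256%) that edgeR called with the block. Without the block no member of any list was called. Named genes whose gates did not overlap stand beside the 5.71% of all tested genes with every CD61High library below every CD61Low library. None of the 11 JAK and STAT genes was called in either direction, and their median log2 fold change without the block was -0.07. Stat3 stood at 454 ± 54.2 CPM in CD61High and 533 ± 100 CPM in CD61Low, and Jak1 at 718 ± 61.0 and 806 ± 116 CPM (SD, n = 3 each). The 8 subunits and partners of the SOCS-box ubiquitin ligase had a median of 0.04 and no call. In all 3 mice 1 of the 8 was lower and 1 higher, beside 24.7% and 20.6% of all tested genes. These were Ube2f (blocked log2 fold change -0.47, SE 0.14, edgeR adjusted p = 0.139) and Cul2 (0.29, SE 0.13, adjusted p = 0.271). Cul5, the cullin of the SOCS box, stood at 70.4 ± 2.82 CPM in CD61High and 66.9 ± 12.7 CPM in CD61Low. Eloc, which encodes elongin C, stood at 91.1 ± 9.22 and 79.9 ± 20.6 CPM.

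Of 27 tested cytokine receptor genes that signal through JAKs, 0 were called with the block. In all 3 mice 15 were lower and 1 higher, beside 24.7% and 20.6% of all tested genes. The median of the 27 was -0.46. Csf3r, the G-CSF receptor that SOCS3 restrains, had 138, 385 and 98.9 CPM in CD61High of mice 1, 2 and 3, against 277, 555 and 167 CPM in CD61Low. With the block its log2 fold change was -0.76 (SE 0.14, edgeR adjusted p = 0.0708). Neutrophils express Csf3r too, and their markers took less of the counts in CD61High of every mouse; the part of these in its difference was not tested. Csf2rb2, a receptor chain for interleukin 3, had 6.15, 14.3 and 6.68 CPM in CD61High against 14.8, 25.6 and 18.6 CPM in CD61Low, with no overlap of the gates (blocked log2 fold change -1.19, SE 0.22, edgeR adjusted p = 0.0657). Il10ra and Il6ra were at -1.81 and -1.11 in the same fit, with edgeR adjusted p of 0.0512 and 0.0932. Within each gate both were highest in mouse 2, as was the share of neutrophil markers. Il10ra had 32.5 and 70.2 CPM in CD61High and CD61Low of mouse 2, and Il6ra 18.5 and 60.5 CPM. The part of other marrow cells in their differences was not tested either.

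Among 13 other inhibitors of JAK and STAT signalling, none was called, and the median was -0.14. Sh2b3, which encodes the adaptor LNK that restrains thrombopoietin receptor and KIT signals in stem cells, had 59.6, 70.1 and 67.4 CPM in CD61High against 96.8, 97.5 and 96.1 CPM in CD61Low. The gates did not overlap, and its blocked log2 fold change was -0.56 (SE 0.13, edgeR adjusted p = 0.0908). Pias2, a SUMO ligase that restrains STATs, had 73.0, 52.5 and 69.6 CPM in CD61High and 53.1, 40.3 and 61.3 CPM in CD61Low, higher in CD61High in 3 of 3 mice (adjusted p = 0.227).

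The 11 tested receptor kinases, adaptors and other proteins reported as bound or degraded through SOCS proteins had a median of -0.63. None was called with the block. In all 3 mice 6 were lower and 2 higher, beside 24.7% and 20.6% of all tested genes. Irs2, an adaptor of insulin signalling, stood at 23.0 ± 7.57 CPM in CD61High and 49.1 ± 5.20 CPM in CD61Low (SD, n = 3 each; blocked edgeR adjusted p = 0.0599). Insr, the insulin receptor, stood at 12.7 ± 1.88 and 26.3 ± 0.375 CPM (adjusted p = 0.0648).

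Of 20 genes that STATs are known to induce, 13 were lower and 1 higher in all 3 mice. Their median was -0.47, with no call in the fit with the block. Of all tested genes, 24.7% were lower and 20.6% higher in all 3 mice. Junb had 295, 464 and 246 CPM in CD61High, against 699, 807 and 705 CPM in CD61Low, so that the gates did not overlap. Junb and Myc are also on the list of immediate-early genes below, so the lists are not separate. Cebpb, a transcription factor of myeloid and acute-phase responses, stood at 120 ± 81.5 CPM in CD61High and 256 ± 101 CPM in CD61Low (blocked edgeR adjusted p = 0.0618). Bcl6 and Mcl1 were at -1.10 and -0.48 with the block (edgeR adjusted p = 0.0737 and 0.115). Within each gate Cebpb, Bcl6 and Mcl1 were highest in mouse 2, as was the share of neutrophil markers. The part of other marrow cells in their differences was not tested. The 24 interferon target genes had a median of -0.22, with 10 lower and 4 higher in all 3 mice and no call. Ifit3, with the smallest blocked p of that list, had 2.15, 4.05 and 1.81 CPM in CD61High against 5.43, 9.65 and 4.47 CPM in CD61Low. Its gates did not overlap (blocked log2 fold change -1.29, SE 0.28, edgeR adjusted p = 0.0791). Tap1 was at 260 ± 16.9 CPM in CD61High and 194 ± 15.4 CPM in CD61Low. Gbp5 was the reverse, at 20.1 ± 10.2 and 30.7 ± 8.76 CPM (blocked edgeR adjusted p = 0.164 and 0.125). The difference between these lists was not tested.

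Immediate-early genes, the fast responders to signals and stress, had a median of -0.71. Of 29 tested, 21 were lower and 1 higher in all 3 mice, beside 24.7% and 20.6% of all tested genes. Fos was the single gene called with the block. It fell to 294 ± 186 CPM in CD61High, against 785 ± 319 CPM in CD61Low (SD, n = 3 each; log2 -1.53, SE 0.17, edgeR adjusted p = 0.0446). Zfp36 and Btg2 were at -1.31 and -1.17 (edgeR adjusted p = 0.0512 each). Within each gate Fos, Zfp36 and Btg2 were highest in mouse 2, as was the share of neutrophil markers. The part of other marrow cells in their differences was not tested. Socs3 is itself a rapidly induced gene, and this list took 0.348%, 0.382% and 0.277% of counts in CD61High of mice 1, 2 and 3, against 0.666%, 0.534% and 0.628% in CD61Low. The part of what these genes share in the Socs3 difference was not tested.

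**Figure D5:**
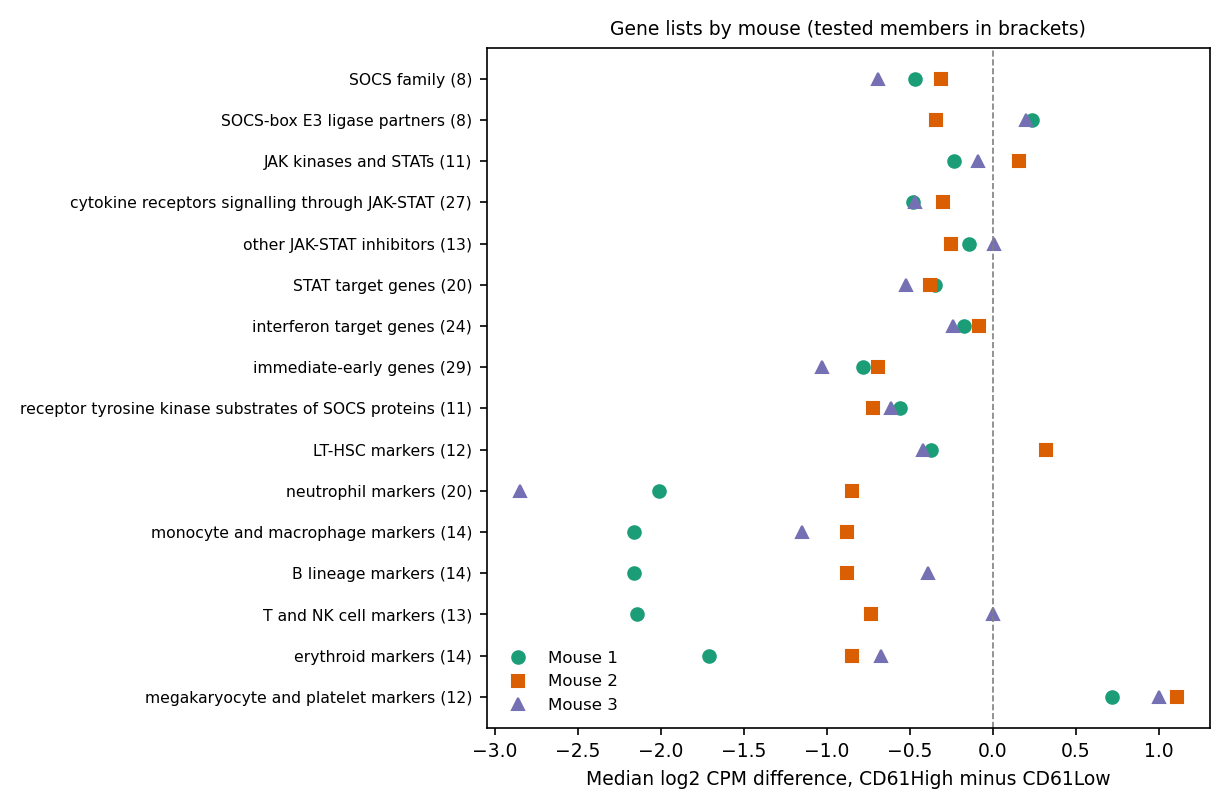
Median log2 CPM difference, CD61High minus CD61Low (x axis), of the tested members of each gene list (y axis, number in brackets), with 1 symbol per mouse. The SOCS family lies at -0.47, -0.31 and -0.69 in mice 1, 2 and 3, the JAK kinases and STATs at -0.23, 0.16 and -0.09, and the neutrophil markers at -2.01, -0.85 and -2.85.

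Markers of other marrow cells are given beside these groups. All 20 neutrophil markers were lower in CD61High in all 3 mice, as were 12 of 14 monocyte and macrophage, 9 of 14 B lineage, 12 of 14 erythroid and 6 of 13 T and NK cell markers. The share of all tested genes was 24.7%. None of these markers was called with the block over 3 mice. The blocked fit without mouse 2 called Socs3 and Cish. It also called 14 neutrophil, 4 monocyte and macrophage, 4 B lineage, 6 erythroid and 0 T and NK cell markers as lower in CD61High. Of all tested genes, that fit called 2.93% as lower. Of 12 megakaryocyte and platelet markers, 7 were higher and 1 was lower in CD61High in all 3 mice, where 20.6% of all tested genes were higher. With the block 3 of the 12 were called as higher, beside 15 of all 15610 tested genes. Pf4 had 79.9, 114 and 130 CPM in CD61High of mice 1, 2 and 3, against 18.1, 88.7 and 35.5 CPM in CD61Low. Neutrophils and monocytes also express SOCS genes, Socs3 among them. The defining neutrophil gene Ngp had 1135, 18844 and 37.2 CPM in CD61High of mice 1, 2 and 3, against 4422, 34532 and 304 CPM in CD61Low. The median log2 difference of the neutrophil markers was -2.01, -0.85 and -2.85 in mice 1, 2 and 3. The differences of Socs3, at -1.40, -0.73 and -1.79, and of Cish, at -0.71, -0.27 and -1.44, had the same order of mice. So did those of Socs1 and Socs5 and the immediate-early median, at -0.78, -0.69 and -1.03. Those of Socs2, at -0.43, -0.74 and -0.92, and of Socs4, Socs6 and Socs7 did not. The share of all tested genes with that order was not counted, so the matches are no result about the members. Among CD61Low libraries, Socs3 was highest in mouse 3, at 125 CPM, where the neutrophil share was lowest, at 0.219%. The part of other marrow cells in the SOCS differences was not tested. In a blocked fit with a neutrophil score as a further term (chosen after seeing the data), Socs3 was at -0.41 (SE 0.37, edgeR adjusted p = 0.777), and Cish, Socs1, Socs5 and Socs6 had estimates above 0. Socs2 and Socs4 were at -0.48 and -0.56 in that fit, against -0.70 and -0.12 with the block alone, and Socs7 lay further below 0 than its -0.43 with the block alone. No mouse had equal scores in both gates, CD61High being lower throughout. These values are therefore extrapolations, with 1 residual degree of freedom, and cannot test the part of neutrophils.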

How the data were processed

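The authors deposited counts of reads per gene, not normalized, as 1 table per library and 1 table of the series (17500 genes, lowest summed count 31); both kinds of table held the same counts (0 differences). STAR 2.7, MultiQC and edgeR are named in the submitters' processing notes. Which build and annotation served for counting is not given in the sources used here. All 55450 identifiers matched GENCODE M21 on GRCm38, which supplied symbols, coordinates and exon lengths. Per the labels' protocols, cDNA was made with SMART-Seq v4 and libraries with Nextera XT, neither of which marks strand, and 49.9% to 50.0% of stranded counts lay on the first strand, so the unstranded counts were used. Lines naming no gene stayed out: unmapped reads were 4.36% to 10.9%, multimapping reads 10.0% to 15.6%, those in no gene 2.88% to 4.21% and those in several genes 3.55% to 4.37%. Between any 2 libraries the chi-square was at least 40.6 per degree of freedom, so none was a duplicate. The labels name no sequencing batch.

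The test was that of edgeR 4.0.16 under R 4.3.3 (quasi-likelihood F, robust dispersion, TMM, filterByExpr by group, two-sided, Benjamini-Hochberg over 15610 genes, called at an adjusted p under 0.05), without a block because no source states mouse as a covariate. The fit was tested on simulated data that held no differences between mice, so that test does not cover them. Standard errors come from the F statistic. Log2 CPM carry a prior count of 2. Alternatives were the mouse block, other scaling factors, no filter, DESeq2 1.42.0, limma 3.58.1 and leaving out libraries or mice. The titles pair the libraries by mouse; deviations from group means correlated at 0.236, 0.806 and 0.761 within mice 1, 2 and 3, against -0.823 to 0.374 between mice. The genes named are all 8 members, the 3 genes most correlated with each, and, from up to 5 genes per list with the smallest blocked p, a choice of 2 to 4; marker lists are given by their share and defining markers. Members and lists were chosen with earlier results of these data known.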

Additional observations from a re-analysis of the deposited data

How the results depend on the processing

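Over 22 alternatives, 171 of the 176 estimates of the 8 SOCS genes kept the sign of the fit without a block and 5 did not: Socs4 was at 0.03 without CD61Low of mouse 2, and with the neutrophil score added to the block Cish, Socs1, Socs5 and Socs6 were at 0.22, 0.11, 0.81 and 0.10. The number of members called was 0, also with the replicate block, and became 1 with DESeq2, 3 with DESeq2 and the block and 1 with limma voom and the block; leaving out libraries or mice gave 0 to 2, the 2 being Socs3 and Cish in the block without mouse 2. Single libraries were left out of the fit without the block, and mice out of the fits with and without it. Over all of these fits, Socs3 moved between -1.64 and -1.02, Cish between -1.25 and -0.50 and Socs2 between -1.14 and -0.24. Socs1 moved between -0.65 and -0.09, Socs5 between -0.86 and -0.01 and Socs7 between -0.75 and -0.21. Socs6 moved between -0.30 and -0.01 and Socs4 between -0.37 and 0.03. Genes called overall were 0 without the block, 40 with the replicate block, 88 with the block and relative log expression factors, 8 with the block and upper-quartile factors, 237 with DESeq2, 1566 with DESeq2 and the block, 333 with limma voom and the block, 237 with the neutrophil score and 0 to 742 when libraries or mice were left out (without mouse 2, 133 and with the block 742; without mouse 3 and with the block, 7). Other pathway genes called numbered 0 of the 144 listed, 1 with the replicate block, 3 with the block and relative log expression factors, 5 with DESeq2, 45 with DESeq2 and the block, 18 with limma voom and the block, 2 with the neutrophil score and 0 to 23 when libraries or mice were left out (without mouse 2, 6 and with the block 23). The cause of these differences was not tested. With all 6 libraries the replicate block in edgeR changed no call of a SOCS gene; without mouse 2 it did, for Socs3 (adjusted p = 0.0189 with it, 0.0758 without) and Cish (0.0474 with it, 0.0751 without). Of the 8 places in the order by level, 5 were kept with the longest protein-coding transcript, a length chosen after seeing the data. All 24 genes most like the members were the same with a prior count of 0.5. Counting error is small at these depths; 3 animals per gate limit the precision.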
